A study of Mus musculus with 4 samples.

Results

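Potassium channels that open at rest or in answer to intracellular ions set how easily a sensory neuron fires. The genes described here are the leak channels of the tandem-pore family (*Kcnk*), the inward rectifiers (*Kcnj*), the large-conductance calcium-activated channel and its subunits (*Kcnm*), the small- and intermediate-conductance calcium-activated channels (*Kcnn*), and the sodium-activated channels (*Kcnt*). They were taken by symbol, as every gene whose name starts with *Kcnk*, *Kcnj*, *Kcnm*, *Kcnn*, or *Kcnt*, which gave 42 of 31053 genes: 14 *Kcnk*, 15 *Kcnj*, 7 *Kcnm*, 4 *Kcnn*, and 2 *Kcnt* genes. Of the 7 *Kcnm* genes, 2 are antisense RNAs, *Kcnmb4os1* and *Kcnmb4os2*, which overlap *Kcnmb4* on the opposite strand.

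The data were single-cell RNA-sequencing counts from 4 libraries of dorsal root ganglion (DRG) cells, one for each sex and surgery (sham or CCI). All mice carried the PirtEGFPf allele, in which the *Pirt* promoter drives green fluorescent protein in sensory neurons, on a C57BL/6 background, and were 7 to 8 weeks old. CCI mice had chronic constriction injury of both sciatic nerves, sham mice had the surgery without ligation, and fluorescent cells were sorted 7 days later from 20 lumbar DRGs of 5 pooled mice per library. Animals were therefore not separated within a library. Surgery did not vary within a litter, whichever the sex, so litter cannot be told apart from surgery. The replicates of a surgery are its 2 libraries, one per sex.

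Tandem-pore channels pass potassium at all voltages and hold the resting potential, and mechanical force, acid, G proteins, or calcium signals tune single members. Inward rectifiers pass potassium more easily into than out of the cell; some are opened by G proteins downstream of opioid and other receptors, some by a fall in ATP, and some serve glia in clearing potassium around neurons. The large-conductance (BK) channel is formed by the alpha subunit *Kcnma1*, needs calcium and voltage together, and takes its kinetics from beta subunits such as *Kcnmb1*, *Kcnmb2*, and *Kcnmb4*. Small-conductance (SK) channels carry part of the afterhyperpolarization that spaces action potentials, and the sodium-activated channels *Kcnt1* and *Kcnt2* open as sodium enters during firing.

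The comparisons below turn in large part on *Kcnmb4* and *Kcnk16*, which were higher after CCI, and *Kcnmb1*, which was lower, and the bases before these genes are shown for that reason. The 250 bases before a transcript start of each gene in RefSeq (GRCm38.p6) are shown 5′ to 3′ on the gene's strand, at chr10:116473524-116473773 on the minus strand for *Kcnmb4*, chr14:20269270-20269519 on the minus strand for *Kcnk16*, and chr11:33962763-33963012 on the plus strand for *Kcnmb1*. The span of *Kcnmb4* given further on, from another annotation of the same build, starts upstream of this RefSeq start, so that the *Kcnmb4* window lies within it. Capitals mark CpG dinucleotides.
Kcnmb4: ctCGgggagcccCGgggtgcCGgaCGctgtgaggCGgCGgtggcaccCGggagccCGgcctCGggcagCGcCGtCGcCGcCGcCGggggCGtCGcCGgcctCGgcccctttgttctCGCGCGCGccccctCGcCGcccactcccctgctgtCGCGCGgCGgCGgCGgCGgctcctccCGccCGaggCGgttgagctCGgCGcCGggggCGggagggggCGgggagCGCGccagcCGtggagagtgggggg
Kcnk16: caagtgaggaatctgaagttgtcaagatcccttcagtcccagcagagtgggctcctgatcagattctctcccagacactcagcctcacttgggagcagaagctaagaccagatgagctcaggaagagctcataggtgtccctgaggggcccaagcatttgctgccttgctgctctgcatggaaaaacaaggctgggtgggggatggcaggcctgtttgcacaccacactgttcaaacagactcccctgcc
Kcnmb1: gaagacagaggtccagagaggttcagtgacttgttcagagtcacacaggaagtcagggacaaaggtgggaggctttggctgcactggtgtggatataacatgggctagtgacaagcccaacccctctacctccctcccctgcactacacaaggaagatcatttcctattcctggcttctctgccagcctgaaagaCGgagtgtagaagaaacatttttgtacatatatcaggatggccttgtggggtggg
The *Kcnmb4* window held 43 CpGs and 83.6% G and C, and only 0.712% of all windows of this length held as many. The *Kcnk16* window held 0 CpGs, as did 7.87% of all windows, and the *Kcnmb1* window held 1. The median was 6 CpGs over all windows and 7 over the 43 windows of the 34 members matched in the table. The windows of *Kcnmb4* and *Kcnk16*, which both rose, thus lay at opposite ends of CpG content. The AP-1 motif TGANTCA, searched on both strands, was in 1 of the 43 member windows (2.33%), that of *Kcnk2*, and in 6.75% of all windows. The CRE motif TGACGTCA was in 0 of 43 and in 1.55% of all windows.

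The libraries held 4019 to 8035 barcodes and 195684124 to 237069156 UMIs, of which 2947 to 5548 cells were kept after filters on doublets, genes, and mitochondrial UMIs. Of the barcodes, 462 to 954 per library also stood in another library, and among the kept cells these were 330 (9.51%) and 146 in the male and female sham libraries and 395 (13.4%) and 33 in those of CCI. Counts of calls without these cells are given in the last section. Of single genes, only *Kcnk1* over all neurons is given without them. Clusters were made without the 42 genes and named from markers, with the suffix "-like": NP1 to NP3 (non-peptidergic), PEP1, PEP2, PEP3/4, and PEP5 (peptidergic), NF1 and NF2 (neurofilament-rich), cLTMR (C-fiber low-threshold mechanoreceptor), CCI-induced, and SGC (satellite glial cell). Clusters led by *Sema5a* and by *Calb1* stayed without a class name. CCI-induced-like clusters held 1.34% and 2.59% of sham neurons and 45.2% and 44.3% of CCI neurons. The neuronal markers were found in every library (all 6 of 6), and neurons numbered 2817 to 5398 per library. Levels are CPM, the UMIs of a gene scaled to a common UMI total for each set of cells. Since 1 molecule gives 1 UMI at its 3′ end, levels were not divided by gene length. Series of 4 values list the sham libraries first, Male-Sham before Female-Sham, and then Male-CCI before Female-CCI.

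In sham ganglia the channel genes were spread unevenly over the neuronal classes. All 42 genes had at least 1 UMI in neurons, 28 lay at 1 CPM or more in both sham libraries, and 14 at 10 CPM or more. The values by class that follow are means ± SD of the 2 sham libraries, and they are descriptions with no test, since classes were made from the same cells. They cover the 12 classes other than the CCI-induced-like clusters, which held few sham cells and had 159 CPM of *Kcnmb4*, 58.9 CPM of *Kcnk12*, and 11.0 CPM of *Kcnk16* in sham, above each of the 12.

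Among leak channels, *Kcnk2*, a mechano-gated channel of the TREK group, reached 212 ± 13 CPM in PEP2-like and 167 ± 0.65 CPM in PEP5-like neurons, 90.4 ± 9.7 CPM in PEP3/4-like neurons, but 3.63 ± 0.62 CPM or less in NF2-, NP2-, NP3-, and cLTMR-like neurons. *Kcnk3*, an acid-inhibited channel of the TASK group, had its highest levels in the same 3 classes in another order, with 159 ± 11 CPM in PEP2-like, 131 ± 1.3 CPM in PEP3/4-like, and 63.4 ± 5.1 CPM in PEP5-like neurons. *Kcnk3* was at 39.3 ± 5.6 CPM in NF1-like and 29.4 ± 3.0 CPM in NF2-like neurons, above the 8.76 ± 1.0 CPM of PEP1-like neurons. In NP1-, NP2-, and NP3-like neurons *Kcnk3* was at 0.544 to 0.802 CPM. Of these, NP3- and NP2-like neurons instead held *Kcnk18* (TRESK, a channel activated by calcineurin), at 57.3 ± 1.7 CPM and 44.3 ± 5.8 CPM. NF2-like neurons had 25.9 ± 3.0 CPM of *Kcnk18*. *Kcnk1*, a weak leak channel of the TWIK group, marked the neurofilament classes with 219 ± 20 CPM in NF2-like and 174 ± 38 CPM in NF1-like neurons, against 32.2 ± 11 CPM in the *Calb1* cluster, next in order. *Kcnk9*, the other acid-inhibited TASK channel, was nearly restricted to cold-sensing PEP5-like neurons, with 76.4 ± 2.5 CPM there, 12.6 ± 3.5 CPM in the *Calb1* cluster, and at most 0.486 CPM in the other classes. *Kcnk12* was highest in NP2-like (50.6 CPM) and NP1-like neurons (41.5 CPM), *Kcnk13* in NP2-like (21.6 CPM), *Kcnk10* in PEP2-like (23.3 CPM) and the *Sema5a* cluster, and *Kcnk4* in PEP1-like neurons (17.8 CPM).

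The inward rectifiers reached at most 59.1 CPM in a neuronal class, and several led in different classes. The G protein-gated subunit *Kcnj3* was highest in the *Sema5a* cluster (34.9 ± 0.59 CPM) and PEP1-like neurons (25.4 ± 2.4 CPM), and was at 0.127 ± 0.036 CPM in cLTMR-like neurons. Another subunit of this group, *Kcnj6*, showed the reverse, with 11.0 CPM in cLTMR-like neurons and at most 0.78 CPM elsewhere, and *Kcnj9* led in PEP5-like neurons (25.9 CPM). The strong rectifiers *Kcnj12* and *Kcnj4* led in cLTMR-like (59.1 CPM) and NF2-like neurons (25 CPM), and *Kcnj11*, the pore of ATP-sensitive channels, led in NF1-like neurons (23.8 CPM).

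Among calcium-activated channels, *Kcnma1* was widespread, from 151 ± 25 CPM in PEP5-like and 146 ± 0.38 CPM in the *Calb1* cluster down to 7.43 ± 3.5 CPM in NP1-like neurons. Its beta subunits divided the classes. *Kcnmb1* was at 213 ± 18 CPM in NP3-like, 149 ± 7.7 CPM in NP2-like, and 93.5 ± 5.0 CPM in PEP1-like neurons, but at 0.498 to 1.03 CPM in NF1- and NF2-like neurons and the *Calb1* cluster. *Kcnmb2* led in the *Calb1* cluster (97.7 CPM) and PEP2-like neurons (94.5 CPM), and *Kcnmb4* in the *Calb1* cluster (79.8 CPM). The SK channel *Kcnn1* led in NP2-like (51.2 CPM) and NP1-like neurons (51.0 CPM), *Kcnn2* in the *Calb1* cluster (93.4 CPM), and *Kcnn3* in PEP5-like neurons (26.2 CPM). *Kcnt1* reached 139 CPM in NP2-like and 115 CPM in NP3-like neurons, and *Kcnt2* 31.9 CPM in the *Sema5a* cluster. Of 23 genes with 20 CPM or more in a neuronal class, 20 had the same leading class when each cell was thinned to 2000 UMIs and the share of cells with a UMI was used, and *Kcnj11*, *Kcnn1*, and *Kcnt2* did not.

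**Figure D1:**
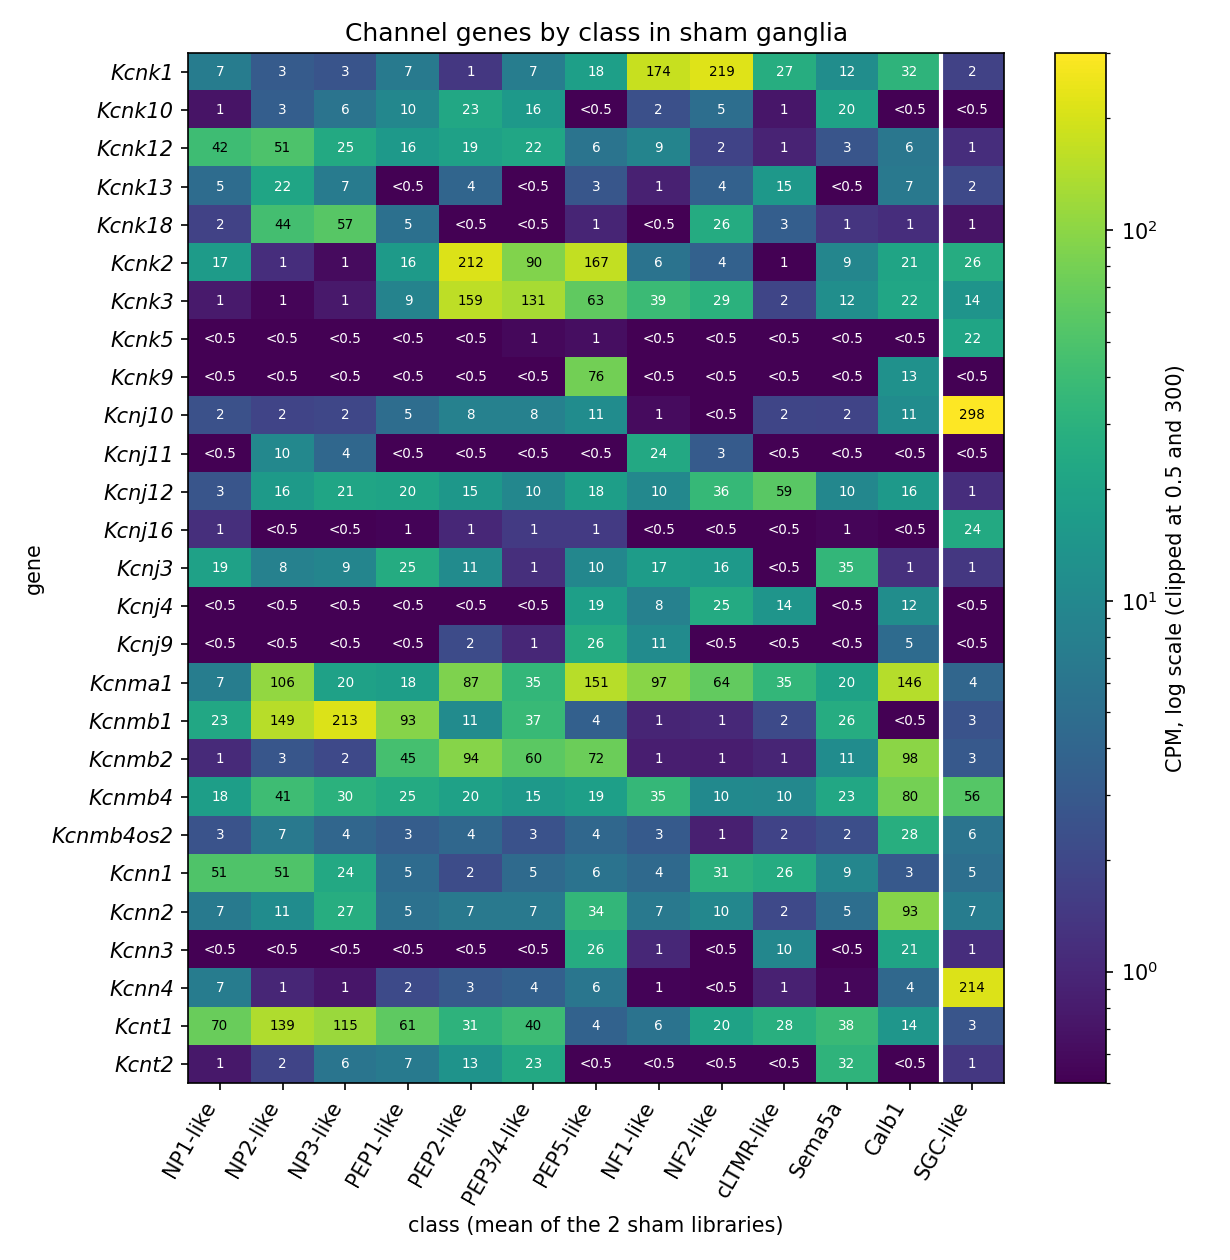
Heat map of the mean CPM of the 2 sham libraries (color, log scale) for 27 genes with at least 20 CPM in a neuronal class or in SGC-like cells (rows) over 12 neuronal classes and SGC-like cells (columns, SGC after the white line). *Kcnk9* has its highest value in PEP5-like, *Kcnk1* in NF2-like, and *Kcnmb1* in NP3-like neurons, and *Kcnj10* and *Kcnn4* have theirs in SGC-like cells.

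The question of the design was which genes change in DRG neurons after nerve injury, and the first comparison took all neurons of a library together. In this sum, fewer cells of a class and less RNA per cell cannot be told apart. Of 42 genes, 36 passed the filter on low counts, 8 rose and 17 fell (adjusted p below 0.05 and a log2 fold change beyond 0.5). Of all 17232 genes tested, 27.8% were called, 15.2% higher and 12.7% lower. The median log2 fold change was -0.44 over the members and -0.01 over all genes.

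The genes that rose were 2 leak channels, 4 *Kcnm* genes, and, at low levels, 2 inward rectifiers. *Kcnk16*, an alkali-activated leak channel known mainly from pancreatic islets, had 0.419, 0.644, 9.26, and 8.67 CPM. It was close to absent in sham neurons, and the groups did not overlap (log2 fold change 4.12 ± 0.18 (SE), adjusted p = 2.0e-05). *Kcnmb4* (chr10:116417861-116473878, minus strand), the neuronal beta subunit of the BK channel, had 25.9, 27.1, 90.2, and 90.1 CPM, with replicates of each surgery far closer to each other than to the other surgery (1.82 ± 0.04, adjusted p = 2.8e-06). The antisense RNA *Kcnmb4os2*, whose annotated span overlaps the first bases of *Kcnmb4* head to head, moved with it, at 4.07, 4.36, 15, and 16.1 CPM (1.94 ± 0.07). Whether the counting used strand is not given in the sources used here, so reads in the overlap cannot be assigned with certainty. The same limit holds for *Kcnmb1*, which overlaps the protein-coding *Kcnip1* on the opposite strand, and for *Kcnma1*, *Kcnj3*, *Kcnj6*, *Kcnj9*, *Kcnj13*, *Kcnj15*, *Kcnk1*, *Kcnk2*, *Kcnk10*, *Kcnn2*, and *Kcnt2*, which also overlap a gene on the opposite strand. *Kcnk4* overlaps *Catsperz* on the same strand. *Kcnk12*, a silent member of the leak family, had 21.4, 21.8, 36.3, and 40.6 CPM (0.89 ± 0.06, adjusted p = 6.1e-05), and *Kcnma1* 59.0, 54.6, 81.4, and 80.1 CPM (0.56 ± 0.05, adjusted p = 1.4e-04), a change just inside the limit without clusters rich in glial RNA (0.499). The other genes that rose, *Kcnj15*, *Kcnj13*, and *Kcnmb4os1*, were at most 0.363 CPM in every library, and the adjusted p of *Kcnmb4os1* was 0.059 without Male-Sham and 0.054 without Female-CCI. *Kcnj5*, a G protein-gated subunit that did not pass the filter, had 0 UMIs in both sham libraries and 11 and 9 UMIs in CCI, at least 7.27-fold higher against 3 UMIs over the sham group, a comparison chosen after its values were seen.

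The genes that fell came from every family. *Kcnmb1* (chr11:33963013-33973641, plus strand), the BK beta subunit best known from smooth muscle, had 71.2, 61.9, 27.4, and 22.3 CPM, and every CCI library was below both sham libraries (-1.36 ± 0.12, adjusted p = 6.7e-04). *Kcnj3* had 10.4, 11.0, 4.65, and 4.08 CPM (-1.23 ± 0.08, adjusted p = 5.8e-05), and *Kcnj11* 2.95, 2.40, 1.11, and 0.825 CPM (-1.41 ± 0.18, adjusted p = 8.4e-04). Both genes were lower in each CCI library than in either sham library. Both *Kcnt* genes fell. *Kcnt1* had 62.6, 57.6, 30.1, and 33.2 CPM (-0.87 ± 0.06, adjusted p = 5.9e-05) and *Kcnt2* 8.26, 7.75, 4.04, and 4.28 CPM (-0.89 ± 0.07). All 3 SK genes fell: *Kcnn1* had 21.2, 17.1, 8.72, and 8.29 CPM (-1.11 ± 0.10), *Kcnn2* 11.3, 10.1, 5.62, and 4.83 CPM (-0.98 ± 0.09), and *Kcnn3* 3.01, 3.25, 1.79, and 1.5 CPM (-0.87 ± 0.13). Leak channels that fell were *Kcnk2*, with 41.0, 44.8, 25.2, and 27.7 CPM (-0.64 ± 0.07, adjusted p = 3.1e-04), *Kcnk18*, with 16.6, 12.6, 8.29, and 6.21 CPM (-0.95 ± 0.19, adjusted p = 0.012), *Kcnk1*, with 27.2, 18.8, 14.1, and 11.9 CPM (-0.77 ± 0.20, adjusted p = 0.030), and *Kcnk7* and *Kcnk9*. The call of *Kcnk1* rested on cells with shared barcodes, without which its change was -0.32 with an adjusted p of 0.13. It was also lost without Male-Sham (-0.49, inside the limit on the fold change), Male-CCI (-0.90, adjusted p = 0.10), or Female-CCI (-0.65, adjusted p = 0.18). The remaining falls, of *Kcnj4*, *Kcnj9*, *Kcnj12*, and *Kcnmb2*, were -1.13, -0.66, -0.52, and -0.56. Of these and the earlier ones, *Kcnj12* went inside the limit without Male-Sham (-0.41) or Male-CCI (-0.46), *Kcnmb2* without Female-Sham (-0.46) or Male-CCI (-0.44), and *Kcnk9* without Female-Sham (-0.38) or Male-CCI (-0.43), and *Kcnk7* had an adjusted p of 0.073 without Female-CCI. Over all neurons, 9 members, not all of them named here, had a weaker result under at least 1 of the alternatives tried.

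*Kcnk3*, the TASK channel with its highest sham level in PEP2-like neurons, stood apart with 39.9, 42.8, 34.7, and 43.3 CPM. Its sham values lay inside the range of the CCI values (-0.03 ± 0.11, adjusted p = 0.84). Summed over families, *Kcnn* went from a sham mean of 35.2 to a CCI mean of 17.0 CPM and *Kcnt* from 68.1 to 35.8 CPM, while the BK beta subunits, with *Kcnmb4* up and *Kcnmb1* and *Kcnmb2* down, were at 124 and 135 CPM. The 6 genes not tested, *Kcnk6*, *Kcnk15*, *Kcnj1*, *Kcnj5*, *Kcnj8*, and *Kcnmb3*, had at most 11 UMIs in any library, where 3 UMIs equal 0.0158 to 0.0188 CPM.

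**Figure D2:**
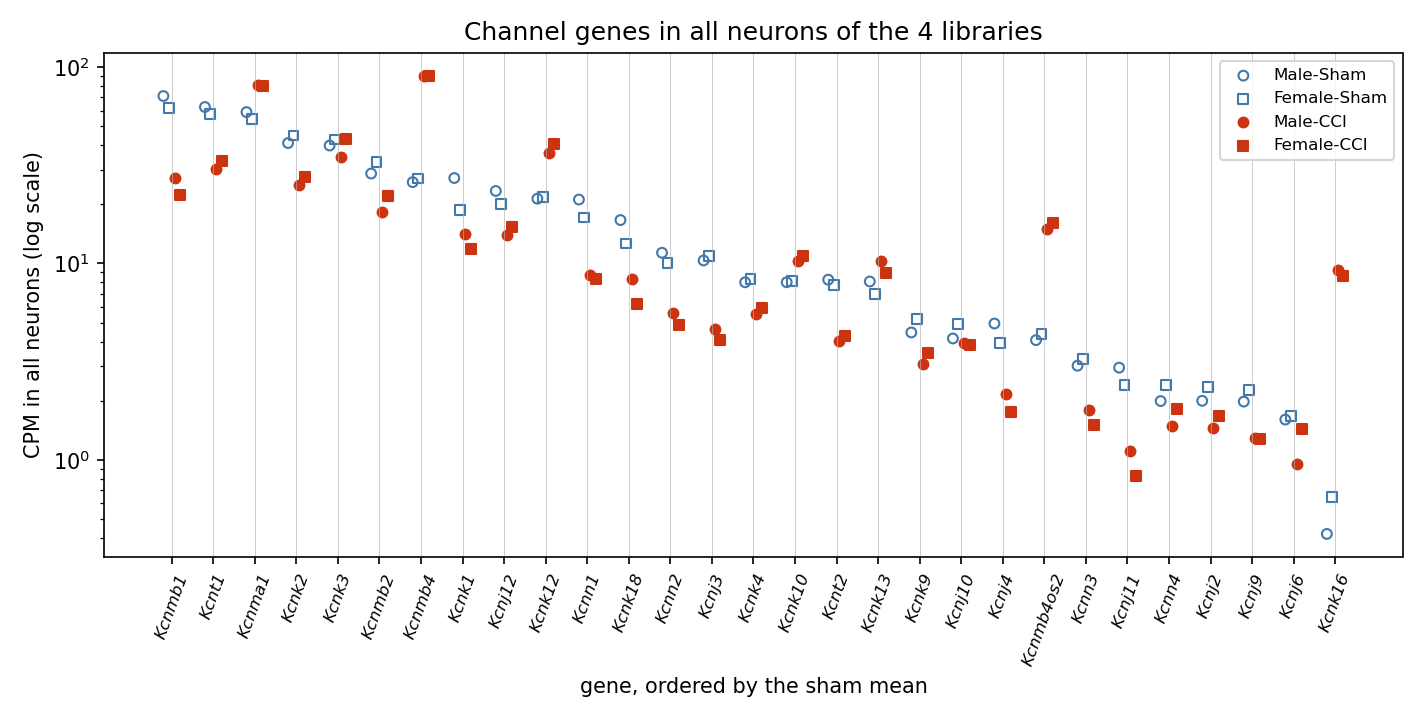
CPM over all neurons (y axis, log scale) in each of the 4 libraries (points) for the 29 genes with a mean of at least 1 CPM, ordered by their sham mean (x axis). The CCI points of *Kcnk16* (8.67 and 9.26 CPM) and *Kcnmb4* (90.1 and 90.2 CPM) stand above both sham points, and those of *Kcnmb1*, *Kcnt1*, and *Kcnn1* stand below them.

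Injured and spared neurons of the same ganglia were compared next, by the injury marker *Sprr1a*. *Sprr1a*+ neurons, those with a log-normalized value above 1, made up 1.28% and 2.67% of sham neurons and 52.1% and 49.2% of CCI neurons. Within the 2 CCI libraries, with library as a term in the fit, 34 members were tested, 7 were higher and 22 lower in *Sprr1a*+ neurons, with a median log2 difference of -1.77. Of all genes tested 45.5% were called, 20.9% higher and 24.7% lower. The *Sprr1a*+ and *Sprr1a*- neurons differ in their make-up of classes as well as in injury, and these cannot be told apart in the sum.

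Among the BK subunits, *Kcnmb4* was higher and *Kcnmb1* and *Kcnmb2* lower in *Sprr1a*+ neurons. *Kcnmb4* was at 29.6 and 30.5 CPM in the *Sprr1a*- and 142 and 149 CPM in the *Sprr1a*+ neurons of Male-CCI and Female-CCI (2.45 ± 0.03, adjusted p = 1.1e-11). *Kcnmb1* went the other way, from 58.6 and 43.5 CPM to 0.954 and 1.54 CPM (-5.19 ± 0.32, adjusted p = 0.0099), and *Kcnmb2* from 31.5 and 35.7 CPM to 7.06 and 8.53 CPM (-1.94 ± 0.05). The pore subunit *Kcnma1* was at 70.8 and 67.0 CPM and at 90.4 and 93.0 CPM (0.59 ± 0.04), and outside the CCI-induced-like clusters its difference turned to -0.20 (adjusted p = 0.011). Expressed as a share of the UMIs of *Kcnmb1*, *Kcnmb2*, and *Kcnmb4*, *Kcnmb4* held 26.3% in *Sprr1a*- and 94.2% in *Sprr1a*+ neurons of CCI, *Kcnmb1* 44.3% and 0.803%, and *Kcnmb2* 29.4% and 5.05% (means of the 2 libraries). In sham neurons that were *Sprr1a*- the shares were 19.1%, 55.2%, and 25.6% in the same order of genes. The few *Sprr1a*+ neurons of sham ganglia (42 and 144 cells) had 97.8% *Kcnmb4*. The Wilson 95% interval was 95.9% to 98.8% for the share of *Kcnmb4* in these cells of Male-Sham and 96.5% to 98.5% in those of Female-Sham. For the other shares it reached at most 1.04 percentage points to either side. These intervals cover counting error only, and capture of the 3 RNAs may differ.

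**Figure D3:**
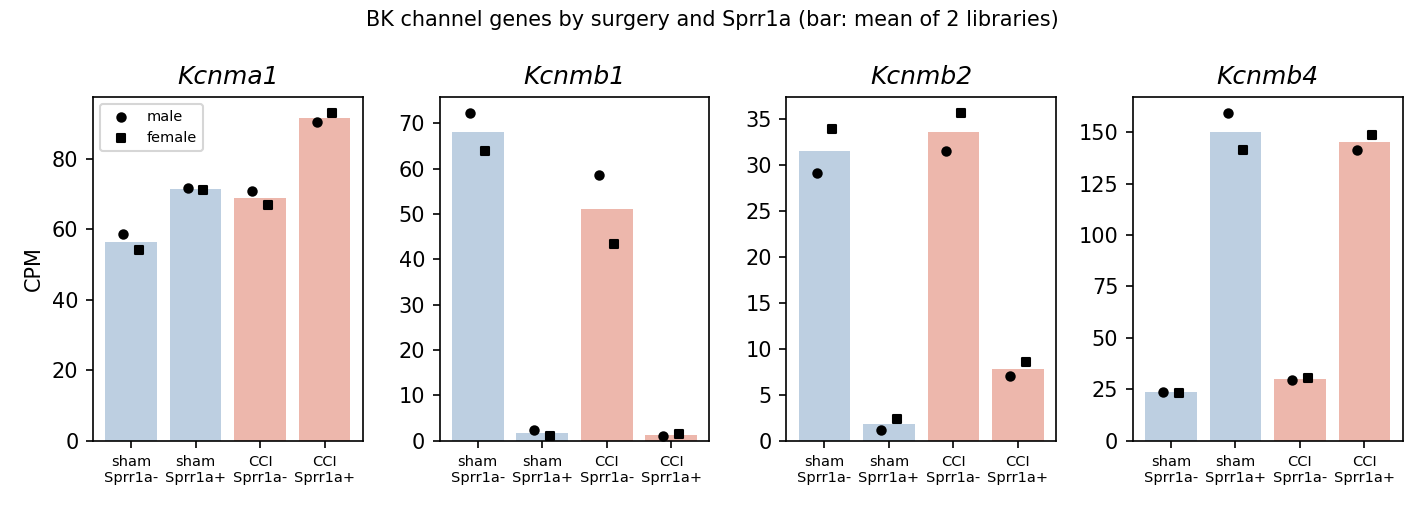
CPM (y axis, from 0, a scale of its own per panel) of the BK channel genes in *Sprr1a*- and *Sprr1a*+ neurons of sham and CCI libraries (x axis), with points for the male and female library and bars for their mean. *Kcnmb4* is high and *Kcnmb1* near 0 in *Sprr1a*+ neurons of both surgeries, 159 and 141 CPM against 2.38 and 0.997 CPM in sham.

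*Kcnk16* was at 0.763 and 1.03 CPM in *Sprr1a*- and 16.5 and 16.2 CPM in *Sprr1a*+ neurons of CCI (4.35 ± 0.11, adjusted p = 6.5e-10). The same was seen in the sham *Sprr1a*+ cells, at 16.3 and 13.1 CPM. *Kcnk12* was at 20.9 and 24.4 CPM against 49.4 and 56.5 CPM (1.40 ± 0.04). Among leak channels that were lower, *Kcnk18* went from 17.3 and 11.9 CPM to 0.647 and 0.632 CPM (-4.34 ± 0.12, adjusted p = 8.9e-10), *Kcnk2* from 45.2 and 45.8 CPM to 8.18 and 9.82 CPM (-2.17 ± 0.06), and *Kcnk3*, which did not pass the test over all neurons, from 59.6 and 70.7 CPM to 13.6 and 16.3 CPM (-1.95 ± 0.04). In the *Sprr1a*- neurons of sham, *Kcnk3* was at 40.5 and 44.1 CPM, below the *Sprr1a*- neurons of CCI. Of the inward rectifiers *Kcnj4* was lower by -4.06 ± 0.20, *Kcnj11* by -3.23 ± 0.30, and *Kcnj12* by -2.12 ± 0.06. Of the SK channels *Kcnn3* was lower by -3.92 ± 0.20, *Kcnn1* by -2.23 ± 0.08, and *Kcnn2* by -1.83 ± 0.10. *Kcnt1* went from 54.7 and 55.5 CPM to 9.26 and 11.2 CPM (-2.26 ± 0.06). Outside the CCI-induced-like clusters, the difference of *Kcnk13* turned to -0.22 (adjusted p = 0.24), and without a filter on low counts the adjusted p of *Kcnmb1* was 0.079.

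**Figure D4:**
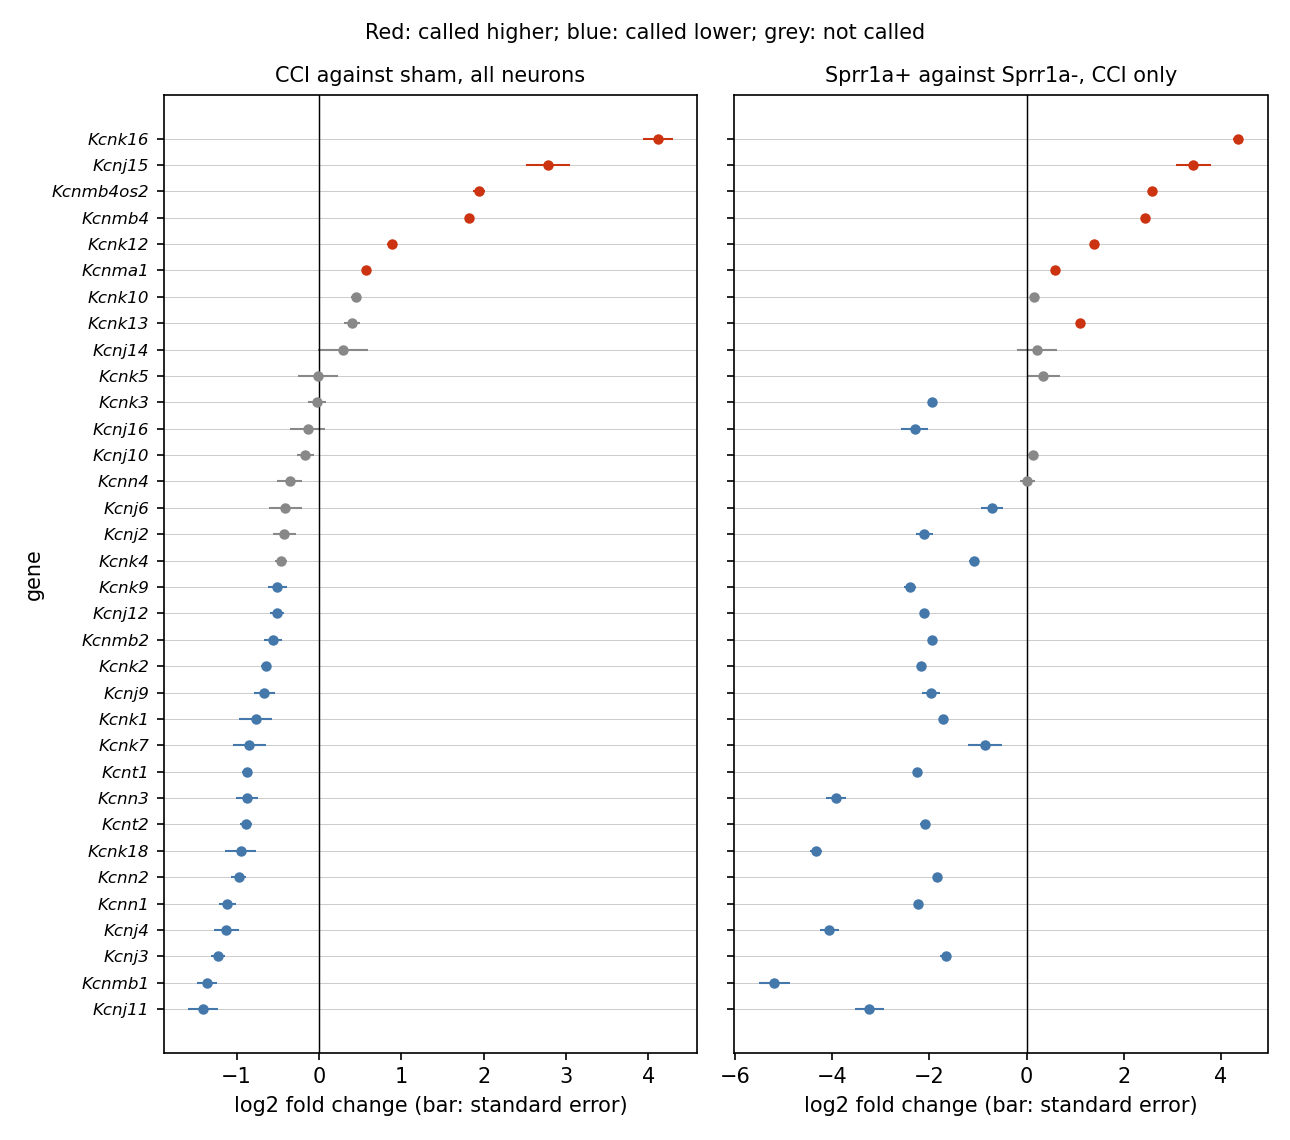
Log2 fold changes with standard errors (x axes) of 34 genes (rows) for CCI against sham over all neurons, and for *Sprr1a*+ against *Sprr1a*- neurons within CCI, with red for genes called higher, blue for genes called lower, and grey for genes not called. *Kcnk16* and *Kcnmb4* lie to the right in both panels (4.12 and 1.82, then 4.35 and 2.45), and *Kcnk3* is near 0 in the first and at -1.95 in the second.

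In 3 groups of neurons, NP1-like and NF2-like neurons and the *Sema5a* cluster, at least 10 cells in every library kept the group's identity while being *Sprr1a*+ after CCI. There, *Sprr1a*+ neurons of CCI (98 and 113, 53 and 31, and 78 and 74 cells in that order of groups) were compared with *Sprr1a*- neurons of the same group in sham (83 and 71, 93 and 120, and 77 and 94 cells). In NP1-like neurons one cluster (6, 23, 103, and 123 cells) held most of the CCI cells and another (82, 63, 26, and 25 cells) most of the sham cells. In these fits 41.6%, 47.3%, and 43.1% of all genes were called for NP1-like, NF2-like, and *Sema5a* neurons, 21.1%, 23.2%, and 20.9% higher and 20.5%, 24.1%, and 22.2% lower. Of the members, 8 of 18 rose and 8 fell in NP1-like neurons, 6 of 20 rose and 10 fell in NF2-like neurons, and 5 of 19 rose and 10 fell in the *Sema5a* cluster.

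In NP1-like neurons, which transmit itch and express natriuretic polypeptide b, the pore subunit *Kcnma1* was at 2.34 and 5.01 CPM in sham and 48.0 and 50.4 CPM in *Sprr1a*+ CCI cells (3.88 ± 0.23, adjusted p = 7.9e-23). *Kcnmb4* rose with it, from 7.27 and 15.4 CPM to 101 and 94.2 CPM (3.24 ± 0.19). Both channel subunits were thus low in *Sprr1a*- NP1-like neurons of sham and several times higher in the *Sprr1a*+ ones of each CCI library. *Kcnk10*, a TREK channel, had 1 UMI in sham and 66 UMIs in CCI, a ratio of CPM of 33.1 with an exact 95% interval of 5.73 to 1325. This interval covers counting error only. In the opposite direction went *Kcnmb1*, from 27.0 and 27.2 CPM to 1.00 and 0.159 CPM (-5.38 ± 0.34), *Kcnj3*, from 23.4 and 21.8 CPM to 1.29 and 1.91 CPM (-3.76 ± 0.29, adjusted p = 9.0e-18), and *Kcnn1*, from 62.5 and 55.1 CPM to 5.59 and 4.29 CPM (-3.51 ± 0.18). *Kcnt1* went from 71.9 and 79.1 CPM to 18.1 and 20.2 CPM (-1.92 ± 0.13). The few *Sprr1a*+ NP1-like neurons of sham were not in this fit. They had 5.44 and 4.02 CPM of *Kcnn1* (2 and 3 UMIs) and 38.1 and 42.9 CPM of *Kcnt1* (14 and 32 UMIs).

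In NF2-like neurons, which are myelinated and lacked *Kcnmb1* in sham (0.79 and 1.27 CPM), the leak channel *Kcnk1* was the member with the highest level, and it went from 233 and 204 CPM to 27.8 and 15.8 CPM (-2.87 ± 0.17, adjusted p = 2.2e-08). *Kcnk16* had 0 UMIs in both sham libraries and 18.5 and 15.8 CPM in *Sprr1a*+ cells, at least 98.8-fold higher against 3 UMIs over the sham group. *Kcnk12* rose from 2.60 and 1.02 CPM to 16.7 and 17.0 CPM (3.47 ± 0.33). *Kcnj11* fell from 3.05 and 3.19 CPM to 0 UMIs in both CCI libraries, at least 6.31-fold lower by the same floor. *Kcnma1* was at 60.6 and 67.6 CPM in sham and 54.7 and 49.8 CPM in *Sprr1a*+ cells, which after normalization was a difference of 0.03 ± 0.12 (adjusted p = 0.84). Normalization (TMM) raised log2 fold changes over those of plain CPM by 0.29 in NF2-like and 0.23 in *Sema5a* neurons, 0.17 within CCI, and moved them by at most 0.08 either way in the other comparisons. No called member had another sign on plain CPM, where only the difference of *Kcnma1* within CCI came inside the limit.

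In the *Sema5a* cluster, *Kcnk12* rose from 1.88 and 3.46 CPM to 27.9 and 24.1 CPM (3.54 ± 0.26), *Kcnk16* by 5.20 ± 0.40, and *Kcnma1* from 21.4 and 19.0 CPM to 49.3 and 48.8 CPM (1.51 ± 0.13). *Kcnj3*, the member with the highest level of inward rectifiers there, fell from 34.5 and 35.3 CPM to 1.94 and 2.75 CPM (-3.70 ± 0.22, adjusted p = 3.8e-07). *Kcnt2* fell from 34.3 and 29.4 CPM to 4.03 and 5.27 CPM (-2.58 ± 0.20). *Kcnj2* was lower there as well (-3.13 ± 0.50, adjusted p = 4.5e-04), and it was also called lower in *Sprr1a*+ neurons within CCI. *Kcnk10*, which rose in NP1-like neurons, was at 20.3 and 19.6 CPM in sham and 18.3 and 19.0 CPM in *Sprr1a*+ cells (0.13 ± 0.15, adjusted p = 0.48).

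Whether these changes differed between groups of neurons was tested by an interaction, a fit added after the data were seen. Its term joins class with the step from *Sprr1a*- neurons of sham to *Sprr1a*+ neurons of CCI. Surgery and *Sprr1a* state are not separated in it. Changes differed (adjusted p below 0.05) for 10 of 23 members between NP1- and NF2-like neurons, 9 of 22 between NP1-like and *Sema5a* neurons, and 11 of 23 between *Sema5a* and NF2-like neurons, against 35.6%, 26.8%, and 22.4% of all genes. The change of *Kcnma1* differed in each pair, by 3.86 ± 0.26 for NP1- minus NF2-like neurons (adjusted p = 2.8e-27), 2.40 ± 0.30 for NP1-like minus *Sema5a* neurons (adjusted p = 2.3e-07), and 1.51 ± 0.17 for *Sema5a* minus NF2-like neurons (adjusted p = 9.9e-07). So did those of *Kcnmb4*, by 1.16 ± 0.25, 1.86 ± 0.24, and -0.64 ± 0.20, and of *Kcnk10*. *Kcnk12* rose less in NP1-like neurons than in NF2-like (-2.58 ± 0.32) and *Sema5a* neurons (-2.63 ± 0.30), and it had the highest sham level in the former, 33.5 and 37.2 CPM. *Kcnj3* fell further in NP1-like than in NF2-like neurons (-2.54 ± 0.48) and in the *Sema5a* cluster than in NF2-like neurons (-2.40 ± 0.45). For *Kcnt1* no difference passed the test, with -0.11 ± 0.22 for NP1-like minus *Sema5a* neurons and 0.35 ± 0.36 and 0.51 ± 0.36 against NF2-like neurons.

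In neurons that were *Sprr1a*- in both surgeries, the channel genes moved far less. In 12 classes 231 tests of members were made and 18 were called, 7 higher and 11 lower, in 7 of the classes. Under the alternatives the count went from 6, both with DESeq2 and with only neurons without a *Sprr1a* UMI, to 30 without Male-CCI. The share of all genes called was 3.97% in NP1-like, 4.3% in NP2-like, 2.55% in NP3-like, 5.16% in PEP1-like, 4.17% in PEP2-like, 3.48% in PEP3/4-like, 3.27% in PEP5-like, 0.646% in NF1-like, 0.533% in NF2-like, and 1.71% in cLTMR-like neurons, 1.94% in the *Sema5a* cluster, and 0.874% in the *Calb1* cluster. No member was called in NF1-, NF2-, and cLTMR-like neurons or in the *Sema5a* and *Calb1* clusters. *Sprr1a*- neurons were not free of injury genes: *Atf3* went from a sham mean of 157 to a CCI mean of 510 CPM in those that were NP1-like. Its mean went from 34.2 to 28.9 CPM in NP2-like and from 155 to 150 CPM in PEP1-like neurons. In PEP2-like neurons it went from 190 to 164 CPM and in PEP3/4-like neurons from 299 to 281 CPM. In every other class the CCI mean of *Atf3* was above the sham mean. The part of *Atf3* in the values below was not tested.

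*Kcnj3* was the member called in most of these classes. It had 8.22, 8.48, 4.67, and 4.33 CPM in NP2-like neurons (-0.91 ± 0.15, adjusted p = 6.4e-04) and 23.7, 27.1, 13.2, and 14.9 CPM in PEP1-like neurons (-0.84 ± 0.11, adjusted p = 0.0011). In both, the CCI libraries were below the sham libraries. It was also called lower in PEP2-like neurons, at 9.87, 12.2, 7.91, and 4.13 CPM (-0.90 ± 0.23, adjusted p = 0.016), and in PEP3/4-like neurons, at 1.20, 1.17, 0.387, and 0.560 CPM (-1.30 ± 0.38, adjusted p = 0.037). The call in PEP2-like neurons was lost without Female-Sham (-0.70) or Female-CCI (-0.52), each with an adjusted p of 0.21, and that in PEP3/4-like neurons without any one of the 4 libraries (-1.09 to -1.61). Its change was below 0 in 9 of the 10 classes in which it was tested and above 0 in PEP5-like neurons (0.26). With *Sprr1a*- narrowed to neurons without a *Sprr1a* UMI, it was called in 1 of 7 classes and below 0 in 6.

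*Kcnk3* was called higher in 2 of the 4 peptidergic classes. In *Sprr1a*- PEP3/4-like neurons it had 132, 130, 197, and 218 CPM, both CCI libraries well above both sham libraries (0.65 ± 0.07, adjusted p = 9.8e-05), and this call held under every alternative tried. In PEP1-like neurons it had 9.5, 8.02, 11.2, and 13.8 CPM (0.54 ± 0.13, adjusted p = 0.020), and that call was lost under 5 alternatives, among them without Female-Sham (0.42) and without Female-CCI (0.39). In PEP2-like neurons, where its level was highest, *Kcnk3* had 167, 151, 180, and 210 CPM, a difference inside the limit (0.30 ± 0.08, adjusted p = 0.020). In PEP5-like neurons it had 67.0, 59.8, 74.5, and 64.6 CPM, and the groups overlapped (0.11 ± 0.09, adjusted p = 0.51). *Kcnma1* was higher in NP3-like neurons, at 20.2, 19.1, 32.2, and 32.5 CPM (0.67 ± 0.12, adjusted p = 0.0019), while its beta subunit *Kcnmb1* was lower there, at 225, 201, 160, and 112 CPM (-0.69 ± 0.13, adjusted p = 0.015), a change that came inside the limit without Female-CCI (-0.49). *Kcnmb4* was higher in PEP5-like neurons, at 19.9, 17.4, 30.3, and 31.5 CPM (0.71 ± 0.13, adjusted p = 0.0019). In those cells *Atf3* went from 87.7 and 92.5 CPM to 151 and 156 CPM, and its part in this result was not tested. The result of *Kcnmb4* was weaker under 1 of the alternatives tried, and that of *Kcnma1* in NP3-like neurons under at least 1.

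The other members called in *Sprr1a*- neurons were each called in 1 class. In NP2-like neurons *Kcnk1* (0.85 ± 0.18) and *Kcnk10* (0.71 ± 0.18) were higher and *Kcnj11* was lower (-0.58 ± 0.13). In the larger of the 2 NP2-like clusters *Kcnj11* had 8.88, 9.86, 6.73, and 6.72 CPM, and the smaller one, at 20.5 and 22 CPM in sham, held 43, 23, 1, and 3 cells. *Kcnn1* was lower in NP1-like neurons, at 62.5, 55.1, 44.0, and 32.5 CPM (-0.64 ± 0.18), *Kcnn2* in NP3-like neurons, at 28.8, 25.3, 16.8, and 21.0 CPM (-0.59 ± 0.14), and *Kcnt2* in PEP1-like neurons (-0.93 ± 0.17). In the NP1-like cluster that held most sham cells, *Kcnn1* had 62.7, 61.3, 53.6, and 44.7 CPM over all its cells, a smaller difference than in the class. In PEP1-like neurons the glial channel genes *Kcnj10* (-1.18 ± 0.20) and *Kcnn4* (-1.34 ± 0.39) were lower, and *Fabp7*, a defining gene of satellite glia, had 269, 269, 98.6, and 127 CPM in the same cells. Of their 126, 179, 25, and 35 UMIs of *Kcnj10*, 113, 162, 12, and 22 lay in 1 of the 3 PEP1-like clusters, which held 99, 199, 12, and 31 cells. In that cluster *Kcnj10* had 22.2, 22.6, 16.5, and 17.7 CPM, and in the other two at most 1.28 CPM in any library. *Kcnn4* had 9.24, 10.6, 5.48, and 12.9 CPM in that cluster, where the groups overlapped. The make-up of the class thus moved with both calls. In PEP3/4-like neurons *Kcnj16* was higher, at 1.49, 1.48, 2.79, and 3.05 CPM (0.96 ± 0.24, adjusted p = 0.018), where *Fabp7* was at 486, 494, 391, and 401 CPM. The part of glial RNA in these results was not tested. Leaving out a library ended the calls of *Kcnk1* in NP2-like (0.67 without Male-CCI) and *Kcnk10* in NP2-like neurons (0.57 without Female-CCI), of *Kcnn2* (-0.49 without Male-Sham, -0.40 without Male-CCI), of *Kcnn1* (-0.57, -0.72, and -0.48 without Male-Sham, Female-Sham, or Female-CCI), of *Kcnn4* (-1.45, -1.22, and -0.77 without Male-Sham, Female-Sham, or Male-CCI), and of *Kcnj16* (0.95, 0.98, and 0.90 without Male-Sham, Female-Sham, or Female-CCI).

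Satellite glial cells wrap the neurons of the ganglion and take up the potassium they release. SGC-like cells were 190, 150, 130, and 111 in number, with all 7 of their markers found in every library, and had a median of 4189 to 5175 UMIs per cell against 32490 to 56457 in neurons, so that 3 UMIs in a library equal 2.65 to 5.25 CPM. They came through a sort for cells in which *Pirt* was active, and *Tubb3*, a neuronal tubulin, lay at 4.60% to 7.97% of its level in neurons. Immune markers summed to 566, 258, 2093, and 614 CPM in these cells.

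The 2 leading channel genes of SGC-like cells were the inward rectifier *Kcnj10* (chr1:172341210-172374085, plus strand), the main glial potassium channel, and the intermediate-conductance channel *Kcnn4* (chr7:24370263-24386690, plus strand). *Kcnj10* had 291, 305, 311, and 332 CPM, with CCI values just above those of sham and a change within its error (0.07 ± 0.13, adjusted p = 0.88). *Kcnn4* had 227, 200, 176, and 182 CPM, lower in both CCI libraries but not past the test (-0.30 ± 0.15, adjusted p = 0.33). *Kcnmb4* had 59.1, 52.1, 75.8, and 75.2 CPM (0.39 ± 0.22, adjusted p = 0.42). Of the low members, *Kcnk2* had 37.0, 15.5, 17.0, and 8.75 CPM (-1.09 ± 0.44, adjusted p = 0.20), and *Kcnj16*, which forms channels with *Kcnj10*, had 22, 26.7, 15.7, and 8.75 CPM (-0.96 ± 0.42, adjusted p = 0.25). In all, 7 members were tested with edgeR and 0 were called, where 3.07% of all genes were, while 2 had an unadjusted p below 0.05, and DESeq2 called 0. Without Female-Sham, the call of *Kcnk2* passed the test (-1.49, adjusted p = 0.031).

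*Kcnj10* was found in 70.7% to 81.1% of SGC-like cells and 11.6% to 13.1% of neurons, and after thinning to 2000 UMIs in 40.5% to 54.1% and 1.01% to 1.14%. For each 1000 UMIs of *Fabp7* there were 18.1, 20.2, 24.9, and 22.6 UMIs of *Kcnj10* in SGC-like cells and 17.0, 16.4, 24.3, and 19.7 in neurons. Without the neuronal clusters rich in glial RNA the ratio in neurons was 16.7, 16.5, 27.5, and 21.4, below that of SGC-like cells in each library other than Male-CCI. For *Kcnn4* these were 12.3 to 14.2 in SGC-like cells and 8.00 to 9.32 in neurons. The level of *Kcnj10* in neurons was 4.15, 4.91, 3.93, and 3.85 CPM (-0.17 ± 0.11, adjusted p = 0.23). Without those clusters it was 1.58, 2.04, 3.03, and 2.77 CPM, and the CCI libraries stood above the sham libraries (0.72 ± 0.15, adjusted p = 0.0055).

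Proteins that assemble with or steer these channels were followed as a list of 36 genes, of which 34 were tested over all neurons, 3 rose, and 3 fell, with a median of -0.07, where 27.8% of all genes were called. *Lrrc38*, a gamma subunit of the BK channel, had 0.0123, 0.0158, 0.467, and 0.450 CPM (5.00 ± 0.33, adjusted p = 5.5e-05). It rose with *Kcnmb4* and *Kcnma1* but from a far lower level. The sulfonylurea receptors that pair with *Kcnj11* parted: *Abcc8* had 2.36, 1.76, 0.885, and 0.769 CPM (-1.26 ± 0.18) and *Abcc9* 0.154, 0.206, 0.602, and 0.556 CPM (1.73 ± 0.23). The other changes were a rise of *Sntb1* (0.71 ± 0.08) and falls of *Ano3*, a partner of *Kcnt1* (-0.98 ± 0.07), and *Akap5*, an anchor of TREK channels (-0.63 ± 0.17). Within CCI 5 of 34 were higher and 10 lower in *Sprr1a*+ neurons, against 45.5% of all genes called, and in SGC-like cells 0 of 27 were called by edgeR, against 3.07% of all genes.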

How the data were processed

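The data were 10x 3′ single-cell libraries of sorted DRG cells. The authors aligned reads to mm10 and counted UMIs with Cell Ranger (2.1.1 in the submitters' processing notes, 3.0.2 in the matrix headers), and as deposited the matrices hold raw UMI counts per gene and barcode. Whether the counting used strand is not given in the sources used here.

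Scrublet (scanpy 1.11.5, expected rate 0.1) scored doublets, and from the top score down as many cells were removed as the study lists for each library. Cells with under 1500 genes or over 10% mitochondrial UMIs were removed. Seurat 5.3.0 integrated the libraries by canonical correlation analysis (3000 variable genes without the members, 20 components) and clustered at resolution 0.8, and clusters were named from markers. Neurons with log-normalized *Sprr1a* (natural log, scale factor 10000) above 1 were *Sprr1a*+.

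Counts were summed per library and class, in sets of at least 10 cells per library, since cells are not replicates, and tested with edgeR 4.0.16 (robust quasi-likelihood test, filterByExpr, TMM), with p-values adjusted by the Benjamini-Hochberg method over all genes tested. A gene was called at an adjusted p below 0.05 and an absolute log2 fold change above 0.5. SE is the absolute log2 fold change over the root of F. DESeq2 1.42.0 was an alternative. The script was tested on simulated data. Members were named where called in a comparison or at a mean of 20 CPM in neurons, SGC, or a class. Members and lists were chosen with earlier results of these data known. The p-values of CCI against sham measure the spread between libraries of pooled mice of different sex, not between mice. Within CCI and in the interaction fits library is a term, so p-values there measure the spread of differences within libraries, again not between mice. Libraries of a surgery carry no replicate numbers in the labels. Depth is 159941070 to 189489772 UMIs over all neurons of a library. Promoter windows are those of RefSeq (GRCm38.p6), and gene positions those of a GRCm38 annotation. Scripts ran in R 4.3.3 and Python 3.11.15 with scipy 1.17.1.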

Additional observations from a re-analysis of the deposited data

Results flagged for a closer look

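In *Sprr1a*- cLTMR-like neurons *Kcnj10* moved in opposite directions in the sexes, by 2.09 on the log2 scale from Male-Sham to Male-CCI and by -1.33 from Female-Sham to Female-CCI, on 20, 73, 28, and 11 UMIs. Of these, 18, 67, 27, and 7 UMIs lay in 1 of the cLTMR-like clusters, which held 15, 109, 17, and 20 cells and had 22.2, 18.4, 28.7, and 8.77 CPM, so that the share of this cluster in each library moved with the values of the class. *Fabp7* had 62.8, 183, 156, and 115 CPM in the same cells. With 1 library per sex and surgery this difference was not tested.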

How the results depend on the processing

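The count of members called over all neurons (25) was 21 to 26 under the alternatives tried, that in *Sprr1a*+ groups (47) was 39 to 51, and that within CCI (29) was 26 to 30. In *Sprr1a*- classes 18 members were called, and 6 with DESeq2, 28 with doublets kept, 6 with only neurons without a *Sprr1a* UMI, 27 without the filter on low counts, and 14 to 30 with 1 library left out at a time. In SGC-like cells 0 to 1 were called with 1 library left out. The cause of these shifts was not tested. Without the CCI-induced-like clusters the differences of *Kcnk13* and *Kcnma1* within CCI were -0.22 and -0.20. Without clusters rich in glial RNA the change of *Kcnj10* over all neurons went from -0.17 to 0.72. With 1 library left out, the change of *Kcnk3* over all neurons was -0.19 to 0.12 (0.02 without Female-Sham) and that of *Kcnj10* in SGC-like cells -0.0328 to 0.154 (-0.00386 without Male-Sham). With sex as a replicate block 25, 27, 46, and 0 members were called over all neurons, in *Sprr1a*- classes, in *Sprr1a*+ groups, and in SGC-like cells, and within CCI 28 without the block. The labels carry no replicate numbers, and the deviations of the male libraries of both surgeries correlated with r = 0.36 over 17231 genes, with 2 pairs only. Without cells of shared barcodes 26, 18, 42, 0, and 28 members were called over all neurons, in *Sprr1a*- classes, in *Sprr1a*+ groups, in SGC-like cells, and within CCI. That alternative and those without clusters rich in glial RNA (25 over all neurons) or without cells with immune markers (25) were chosen after seeing the data. In SGC-like cells 7 of 42 members could be tested and 14 had no UMI, and the part of depth in this was not tested.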
